A study of Mus musculus with 24 samples.

Results

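The binding of MEF2C was compared between mouse embryonic fibroblasts transfected with an siRNA against H1f0 (siH1f0) and the same cells transfected with a control siRNA (siControl), both at day 1 of cardiac reprogramming. The comparison took in 5 CUT&RUN samples with 1 peak list each, 3 under siH1f0 and 2 under siControl, chosen by target and siRNA from the 24 samples of the series, of which 16 had a peak list. Peaks on chromosomes 1 to 19 and X were used, 119020 in the 5 lists. All 5 samples came from 1 line, iMGT-Myh6-eGFP-MEF, in which doxycycline switches on Mef2c, Gata4 and Tbx5 (MGT) and an eGFP reporter marks Myh6. In both groups the siRNA was added to wells of 300000 cells, 1 µg/mL doxycycline followed on the next day, and about 250000 cells per condition were collected 1 day after induction, so siControl cells were reprogrammed as well. H1f0 RNA and H1.0 protein were not analysed here, so neither the knockdown nor the identity of the cells was checked, and induced and endogenous MEF2C cannot be told apart. Replicates are named biological in the labels, with no word on whether cultures, transfections or libraries were repeated, so a p here speaks of the scatter among these samples, part of which can be technical.

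H1.0, the product of H1f0, is a replication-independent linker histone that binds the nucleosome and the DNA that enters and leaves it, and it accumulates in cells that have stopped dividing. MEF2C is a MADS-box transcription factor that binds an AT-rich element as a dimer and drives muscle and heart genes, often beside GATA4 and TBX5. Class IIa histone deacetylases bind MEF2 proteins and hold their targets silent. In CUT&RUN, an antibody directs a nuclease to the bound protein, the released DNA is sequenced, and a peak is a stretch where coverage exceeds a threshold. The comparison asks which MEF2C regions were found with and without the siRNA against this linker histone.

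The lists fell into 2 kinds by their names. The list of siH1f0 replicate 3 and that of siControl replicate 1 have names with the prefix M, and the other 3 do not; the labels do not say what the prefix stands for. Lists with the prefix were shorter and narrower, and the values per list and the gained and lost regions were also taken within each kind, as 1 list against 1 with the prefix and 2 against 1 without it. The rank comparison was repeated within the lists without the prefix only. With 3 lists against 2 an exact permutation test cannot give a p below 0.2, so none of those tests could pass 0.05.

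Among the promoters of genes that the comparison turns on, 6 are shown because they stand for regions held by every list, regions found under 1 siRNA, and a muscle promoter held by some lists. The sequences are RefSeq promoter windows on GRCm38.p6, the assembly of mm10, from 250 bases before to 50 bases after the annotated start, written along the gene's own strand. Capitals mark matches to the MEF2 element (CTA, then 4 bases of any kind, then TAG), the AP-1 element TGANTCA, the GATA-factor element AGATAA and the T-box element AGGTGT, each searched on both strands.
Hdac9 (chr12:34528840-34529139, minus strand), held by all 5 lists: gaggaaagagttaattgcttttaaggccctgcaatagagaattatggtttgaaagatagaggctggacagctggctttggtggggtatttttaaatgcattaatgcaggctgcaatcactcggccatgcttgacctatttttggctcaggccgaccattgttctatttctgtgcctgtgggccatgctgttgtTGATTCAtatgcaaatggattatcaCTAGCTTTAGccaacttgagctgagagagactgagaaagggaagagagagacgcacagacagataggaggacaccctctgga
Jun (chr4:95052173-95052472, minus strand), held by all 5 lists: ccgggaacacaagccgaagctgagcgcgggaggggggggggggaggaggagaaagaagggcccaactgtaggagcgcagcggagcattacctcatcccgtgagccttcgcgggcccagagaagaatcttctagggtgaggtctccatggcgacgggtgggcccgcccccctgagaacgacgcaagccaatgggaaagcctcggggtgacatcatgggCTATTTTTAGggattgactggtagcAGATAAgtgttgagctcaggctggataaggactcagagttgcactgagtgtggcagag
Ttn (chr2:76982498-76982797, minus strand), held by 2 siH1f0 lists: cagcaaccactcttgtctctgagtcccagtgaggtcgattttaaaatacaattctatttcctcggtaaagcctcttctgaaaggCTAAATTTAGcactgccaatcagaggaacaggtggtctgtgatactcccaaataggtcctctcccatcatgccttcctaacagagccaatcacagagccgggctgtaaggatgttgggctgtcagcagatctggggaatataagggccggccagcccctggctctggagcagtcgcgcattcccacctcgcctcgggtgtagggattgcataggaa
Ldb3 (chr14:34588632-34588931, minus strand), held by all 3 siH1f0 lists and no siControl list: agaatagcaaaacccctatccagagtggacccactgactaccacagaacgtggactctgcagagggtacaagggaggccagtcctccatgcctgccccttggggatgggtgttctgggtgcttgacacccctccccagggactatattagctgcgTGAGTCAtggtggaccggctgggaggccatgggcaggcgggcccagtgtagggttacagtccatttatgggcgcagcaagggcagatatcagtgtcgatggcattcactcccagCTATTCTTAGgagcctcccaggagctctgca
Prkra (chr2:76647978-76648277, minus strand), held by all 3 siH1f0 lists and no siControl list: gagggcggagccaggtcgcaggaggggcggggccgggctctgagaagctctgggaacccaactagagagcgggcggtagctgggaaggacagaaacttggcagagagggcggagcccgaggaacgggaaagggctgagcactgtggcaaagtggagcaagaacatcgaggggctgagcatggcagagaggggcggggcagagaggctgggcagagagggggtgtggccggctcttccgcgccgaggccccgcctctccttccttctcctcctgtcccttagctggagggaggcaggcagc
Rplp2 (chr7:141447401-141447700, plus strand), held by both siControl lists and no siH1f0 list: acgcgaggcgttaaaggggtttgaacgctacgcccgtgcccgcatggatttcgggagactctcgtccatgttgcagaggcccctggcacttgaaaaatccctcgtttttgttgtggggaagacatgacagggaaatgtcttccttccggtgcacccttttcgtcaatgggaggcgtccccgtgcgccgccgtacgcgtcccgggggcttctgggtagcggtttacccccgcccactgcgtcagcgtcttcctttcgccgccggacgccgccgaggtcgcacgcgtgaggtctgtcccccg
The Hdac9 window held 1 MEF2 match and 1 AP-1 match, the Jun window 1 MEF2 match and 1 GATA match, the Ttn window 1 MEF2 match, and the Ldb3 window 1 MEF2 match and 1 AP-1 match. The Prkra and Rplp2 windows held none of the 4 elements. The examples are not typical, since the MEF2 element stood in 5.27% of windows held by all 5 lists and 3.71% of all windows. At Ttn the middle of the highest stretch lay outside the window, 663 and 636 bp past the start in siH1f0 replicates 1 and 2. All 5 lists had a peak within 5 kb of an end of Ttn, so its window does not show binding under siH1f0 alone.

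MEF2C peaks numbered 22868, 35598 and 17856 in siH1f0 replicates 1, 2 and 3, against 14912 and 27786 in siControl replicates 1 and 2. The shortest list was a siControl list and the longest a siH1f0 list, but the groups overlapped. Means were 25441 ± 9147 peaks under siH1f0 (SD, n = 3) and 21349 ± 9103 under siControl (SD, n = 2; exact permutation p = 0.8, two-sided). The lists covered 56.4, 89.8 and 22.5 Mb under siH1f0, against 15.5 and 63.2 Mb under siControl (exact permutation p = 0.6). Median peak width was 2064, 2067 and 1152 bp under siH1f0, against 943 and 1981 bp under siControl (exact permutation p = 0.4). In both measures the pair with the prefix M lay below the other 3 lists. Within the pair with the prefix, siH1f0 had 2944 peaks more than siControl, and without it the siH1f0 mean was 1447 peaks above siControl. The labels put sequencing at 30 M reads for each sample but say nothing of aligned reads, so the depth behind a peak is unknown.

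Overlapping peaks of the 5 lists were joined into 44923 regions with a median width of 2235 bp. Of these, 7706 regions (17.2%) were held by all 5 lists and 18753 (41.7%) by 1 list. Regions held by all 3 siH1f0 lists and by no siControl list, called gained, numbered 360, which is 0.801% of all regions. Regions held by both siControl lists and by no siH1f0 list, called lost, numbered 189, which is 0.421%. Both counts moved when a list was left out, where fewer lists must share or lack a region. Without siControl replicate 1, 430 regions were gained and 3494 lost, and without siControl replicate 2, 3134 were gained and 1769 lost. Without siH1f0 replicate 1, 934 were gained and 258 lost, without replicate 2, 483 and 774, and without replicate 3, 2064 and 230. Within lists with the prefix 9048 were gained and 5934 lost, and within lists without it 2288 were gained and 3813 lost. Which count was larger changed with the lists used, but so did the rule. Over all 5 lists, gained asked for 3 siH1f0 lists and lost for 2 siControl lists. Without the prefix, gained asked for 2 and lost for 1, so the counts of different subsets are not like for like. Regions were also joined anew from the lists used, so the counts of subsets are not shares of the 44923 regions. The 3 lists without the prefix shared 4352 regions that neither list with the prefix held, and 93 regions were held by the 2 lists with the prefix alone.

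**Figure D1:**
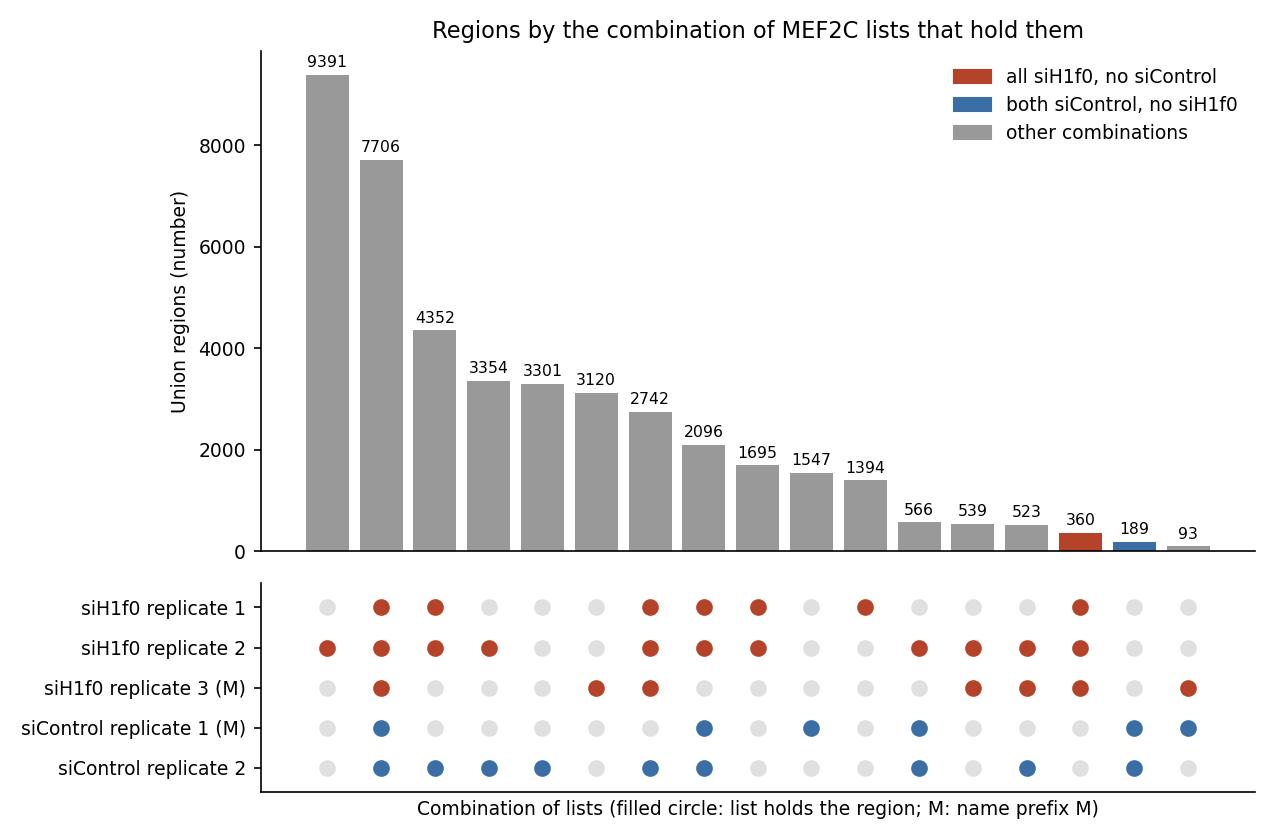
Number of union regions (bars, linear axis) for each combination of the 5 MEF2C lists that hold them, the 14 most common combinations plus 3 rarer ones, with filled circles below naming the lists. The 7706 regions of all 5 lists and the 4352 of the 3 lists without the prefix M stand far above the 360 gained and 189 lost regions.

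Among the lists without the prefix, as deposited, the pair under the same siRNA did not overlap more than the pairs under different siRNAs. The overlap of 2 lists, as shared regions over all regions of either, averaged 51.3% over the 3 siH1f0 and siControl pairs of one kind and 36.9% over the 3 pairs of different kinds, although the pair with the prefix reached 39.2% only. Within siH1f0 it was 52.7% for replicates 1 and 2, below the 58.9 and 55.8% of these lists with siControl replicate 2, and averaged 37.2% for the pairs that joined the kinds. The siControl lists, which are of different kinds, shared 38.4%. When each list was shortened to its 14912 strongest peaks by maximum signal, 336 regions were gained and 309 lost of 24805, and the pair with the prefix had the lowest overlap, 42.3%. The lowest maximum signal kept was then 14, 18 and 5 in siH1f0 replicates 1, 2 and 3, against 2 and 19 in siControl replicates 1 and 2.

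Whether a region was shared went with its strength. Strength was taken as the percentile of a peak's maximum signal within its own list, since the deposited signal, which is the authors' value for each peak, is not scaled between lists. Of the 10888 regions of both siControl lists, the weakest 20% were held by 72.5, 89.3 and 41.3% in siH1f0 replicates 1, 2 and 3, and the strongest 20% by 99.7, 99.8 and 98.5%. Of the weakest 20%, 6.66% were in no siH1f0 list, and of the strongest 20%, 0.0459%. Of the 10878 regions of all 3 siH1f0 lists, the weakest 20% were held by 31.2 and 84.4% in siControl replicates 1 and 2, and the strongest 20% by 99.3 and 100%. In that direction 13.4% of the weakest 20% and 0% of the strongest were in no siControl list. The median percentile of the gained regions was 31.2, 41.0 and 43.4 in siH1f0 replicates 1, 2 and 3, and that of the lost regions 19.6 and 27.4 in siControl replicates 1 and 2. Regions of all 5 lists had medians of 81.3, 87.7 and 76.6 under siH1f0, against 66.7 and 83.7 under siControl.

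**Figure D2:**
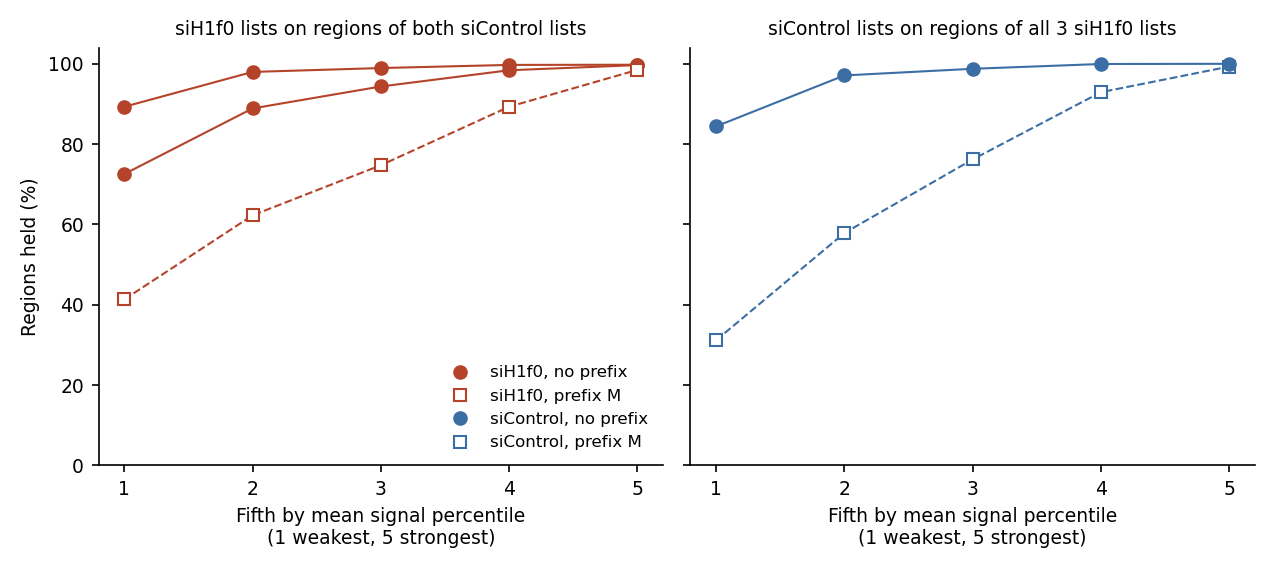
Percentage of regions held (y axis, 0 to 100%) by each siH1f0 list among regions of both siControl lists (left) and by each siControl list among regions of all 3 siH1f0 lists (right), over 5 equal bins from weakest to strongest mean percentile. Open squares with dashed lines are lists with the prefix M, which start lowest, at 41.3% (siH1f0 replicate 3) and 31.2% (siControl replicate 1), and all lists hold 98.5 to 100% in the strongest bin.

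The 10 gained regions with the highest percentiles lay in or nearest to Gm13275, Scaf8, Auts2, Nfic, Ccdc150, Cited2, Gramd3, Acot7, Klra5 and Dennd1b. The region by Cited2 (chr10:17689140-17691496), which encodes a CBP and p300 binding regulator needed for heart development in mice, had percentiles of 78.4, 82.2 and 64.0 in siH1f0 replicates 1, 2 and 3. It lay 31.7 kb from the gene. The region in Nfic (chr10:81414975-81418653), a nuclear factor I transcription factor, had percentiles of 65.6, 66.5 and 76.6. The region in Auts2 (chr5:131557339-131559702), which encodes a nuclear regulator of transcription, had percentiles of 68.4, 82.2 and 76.6. Of the others, the regions at Gm13275, Acot7 and Dennd1b lay within the gene, and those at Scaf8, Ccdc150, Gramd3 and Klra5 lay outside, between 4.15 and 53.9 kb away. Over the 10 regions and 3 lists, percentiles ran from 59.2 (Dennd1b, siH1f0 replicate 1) to 84.3 (Gm13275, siH1f0 replicate 3).

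The 10 lost regions with the highest percentiles lay in or nearest to Csmd1, Krt23, Hmcn1, Tubb3, Hrh1, Nkx2-6, Tmem135, Rpusd4, Sfi1 and Rplp2. The region nearest to Csmd1 (chr8:15519070-15520568) had percentiles of 97.8 and 99.1 in siControl replicates 1 and 2, with a maximum signal of 36 and 179. It was the lost region with the highest lower percentile, lay 372 kb from the gene, and overlapped 3 of 4 H1.0 lists and 3 of 4 H3K9me3 lists. The region by Nkx2-6 (chr14:69161904-69162944), which encodes a homeobox factor of the pharynx and heart in mouse embryos, had percentiles of 66.7 and 73.5 and lay 8.86 kb from the gene. The region by Tubb3 (chr8:123425650-123426961), a neuronal tubulin gene, had percentiles of 89.3 and 69.3. The region across the end of Rplp2 (chr7:141446616-141447733), a protein of the ribosomal stalk, had percentiles of 60.2 and 64.3 and took in the promoter shown above. No filter for repeat-rich regions was applied here.

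The regions named next were picked among those held by all 5 lists, so their presence under both siRNAs was set by the choice. The 5 regions with the highest lowest percentile over all lists lay across an end of Gadd45b (a stress-response gene), Osbp (an oxysterol-binding protein) and Fam214a, 4.83 kb from Auh (an enoyl-CoA hydratase that binds RNA) and 28.1 kb from Irs1 (an insulin receptor substrate). The Gadd45b region (chr10:80926761-80951125) had a maximum signal of 483, 500 and 199 in siH1f0 replicates 1, 2 and 3, against 219 and 795 in siControl replicates 1 and 2. It held the highest peak in siH1f0 replicates 1 and 3 and in siControl replicate 1. In the other 2 lists the highest peak lay at Osbp, with a maximum of 614 in siH1f0 replicate 2 and 990 in siControl replicate 2.

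The signal rank of the 7706 regions held by all 5 lists was compared with limma on normal scores of the rank within each list. No region passed a Benjamini-Hochberg adjusted p of 0.05 in either direction (0% called each way), and the smallest adjusted p was 0.832. At an unadjusted p under 0.05, 235 of the 7706 regions ranked higher and 203 lower under siH1f0. With no difference at all, a share of about 0.05 of regions would reach such a p, so these counts are not read as changes. In 859 regions (11.1%) all siH1f0 percentiles lay above both siControl percentiles, and in 858 (11.1%) all lay below. The 5 lists can be split in 10 ways, and 1 of these gives such an order in each direction. A share of about 1 in 10 each way would thus be met if the 5 lists were interchangeable, and both shares lay close to it. The lists are of 2 kinds, so the share met with no difference can be another. The closeness therefore decides nothing. For 59.2% of regions the mean percentile differed by at most 10 points between the groups, and the 5th and 95th percentiles of the difference were -23.0 and 22.6 points. With the name prefix as a covariate, 345 of the 7706 regions ranked higher and 339 lower at an unadjusted p under 0.05. The smallest adjusted p was then 0.498, so again no region passed. Together, however, these unadjusted counts were more than the share of about 0.05 given above, and what lay behind this was not tested. Ranks correlated across regions at Spearman's rho 0.876 between siH1f0 replicate 2 and siControl replicate 2, above the 0.746 of the 2 siControl lists; these are correlations across regions, which are not independent replicates.

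Regions with the smallest p in each direction are named although none passed. The region in Lingo1 (chr9:56711888-56714060), a transmembrane protein of neurons, had percentiles among the shared regions of 78.0, 64.5 and 82.1 in siH1f0 replicates 1, 2 and 3, against 6.80 and 10.4 in siControl replicates 1 and 2. The groups did not overlap, and the difference was 2.07 ± 0.324 normal scores (SE, limma adjusted p = 0.832). The region in Vps45 (chr3:96011452-96016072), a protein of vesicle transport, had percentiles of 60.7, 71.2 and 71.9 under siH1f0, against 13.6 and 15.4 under siControl. Regions in Syne1 and Sufu and one 52.0 kb from Fgd2 also ranked higher, without passing. In the opposite direction, the region in Mrps10 (chr17:47373429-47376350), a mitochondrial ribosomal protein, had percentiles of 35.9, 9.36 and 15.5 under siH1f0, against 82.8 and 72.7 under siControl. Regions at Alkbh4 and Nudt9 and one 34.6 kb from Col24a1 also ranked lower, without passing.

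**Figure D3:**
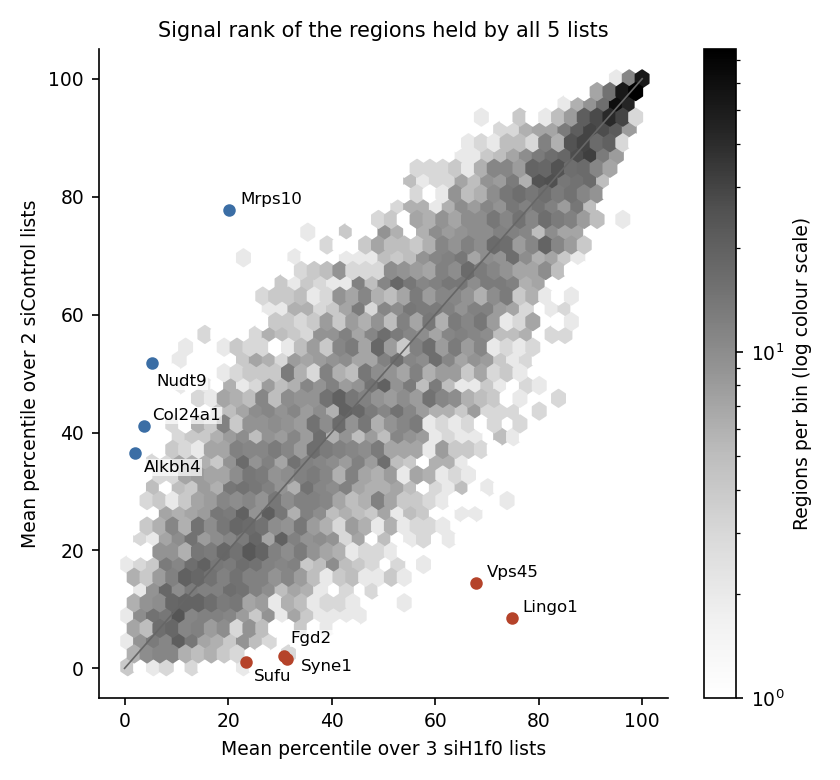
Mean percentile of maximum signal over the 3 siH1f0 lists (x axis) against the mean over the 2 siControl lists (y axis) for the 7706 regions held by all 5 lists, as a density with a log colour scale, with the line of equality. The 9 labelled regions are among those with the smallest p in each direction (red higher, blue lower under siH1f0); none passed, with a smallest adjusted p of 0.832.

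Genes of the heart and of muscle were read at their ends, with a gene counted when a peak lay within 5 kb of its annotated start or end. Of 30 sarcomere and contractile genes, 16, 18 and 14 had a peak in siH1f0 replicates 1, 2 and 3, against 15 and 19 in siControl replicates 1 and 2 (53.3 ± 6.67% and 56.7 ± 9.43%, SD, n = 3 and 2; exact permutation p = 0.8). The groups overlapped, as they did for all protein-coding genes, of which 37.8 ± 9.94% had a peak under siH1f0 and 32.5 ± 14.8% under siControl (SD, n = 3 and 2; exact permutation p = 0.6). Of the 30 sarcomere and contractile genes, 10 had a peak in all 5 lists, against 3396 of all 21631 protein-coding genes. Among the 10 were Actc1 (cardiac actin), Ttn (titin), Myl7 (atrial myosin light chain), Tpm1 (tropomyosin) and Xirp1. Tpm1 had percentiles of 99.6, 99.7 and 98.2 in siH1f0 replicates 1, 2 and 3, against 98.8 and 99.5 in siControl replicates 1 and 2. Xirp1, an actin-binding protein of muscle and a known MEF2 target, had 97.2, 96.7 and 95.7 under siH1f0, against 94.5 and 98.4 under siControl. Ttn had 91.1, 86.3 and 64.0 under siH1f0, against 60.2 and 82.5 under siControl. At these 3 genes the groups overlapped in strength. Actc1 had 88.1, 91.5 and 86.9 under siH1f0, against 76.2 and 83.7 under siControl, so its groups did not overlap. These percentiles are taken within lists of different length. Over the regions held by all 5 lists the median was lowest in siControl replicate 1, at 66.7. The part of this offset in the order at Actc1 was not tested, and genes with such an order were not counted. Myl7 had 79.8, 84.8 and 80.9 under siH1f0, against 84.4 and 72.2 under siControl, with overlap.

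Ldb3, which encodes a protein of the sarcomere's Z-disc, had a peak in all 3 siH1f0 lists and in no siControl list. Its percentiles were 51.4, 60.9 and 55.0 in siH1f0 replicates 1, 2 and 3, and the peaks (1567, 1083 and 1505 bp wide) covered the promoter shown above. Mamstr, a SAP-domain coactivator of MEF2 proteins, had the same pattern, with percentiles of 51.4, 76.2 and 86.9 and no siControl peak. Its peaks lay inside the gene (chr7:45643010-45644071 in siH1f0 replicate 1), outside its RefSeq promoter window. Mybpc3, the cardiac myosin-binding protein C gene, had a peak near an end in both siControl lists and no siH1f0 list. Its percentiles were 19.6 and 18.8 in siControl replicates 1 and 2, with maximum signals of 6 and 12. The 2 peaks (chr2:91113219-91113782 and chr2:91111736-91113152) did not overlap each other, so they were not a lost region. Of all 21631 protein-coding genes, 134 (0.619%) had a peak in all siH1f0 and no siControl list, and 34 (0.157%) in both siControl and no siH1f0 list, against 2 (0.877%) and 1 (0.439%) of the 228 genes in the 16 lists. Tnnt2 (cardiac troponin T) had a peak in siH1f0 replicates 1 and 2 and in siControl replicate 2. No list had a peak by Nppa, a natriuretic peptide gene, or Ryr2, the ryanodine receptor gene of the heart.

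The 3 induced factors and the reporter gene need care, because reads of a transgene and of its own locus cannot be told apart in the lists. Tbx5 had a peak in all 3 siH1f0 lists and in siControl replicate 2, with percentiles of 55.4, 68.8 and 86.9 against 46.4. That peak ran over the same bases, chr5:119882911-119883487, in siH1f0 replicate 1 and siControl replicate 2. Gata4 had a peak by an end in siH1f0 replicates 1 and 2 and in siControl replicate 2, with percentiles of 46.8 and 41.0 against 27.4. Mef2c had a peak by an end in siControl replicate 1 alone, a stretch of 358 bp at percentile 97.8. Another peak inside Mef2c (chr13:83602962-83605296 in siH1f0 replicate 3) was strong in every list, at percentiles of 98.9, 99.3 and 97.8 in siH1f0 replicates 1, 2 and 3, against 98.3 and 99.5 in siControl replicates 1 and 2. Myh6, whose promoter also drives the reporter, had 3 peaks in siControl replicate 1, at percentiles of 31.2, 60.2 and 42.4, and none in the other 4 lists.

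MEF2 genes, cofactors and class IIa deacetylases had a peak by an end in 9 of 14 genes in each siH1f0 list, against 7 and 9 of 14 in siControl replicates 1 and 2 (exact permutation p = 0.8). Mef2a, Mef2d, Hdac5, Carm1 and Cabin1 had one in all 5 lists. Hdac9, the class IIa deacetylase whose promoter is shown above, had none by its ends, but the RefSeq window inside the gene lay under one of the strongest peaks of every list. Its percentiles were 99.8, 99.7 and 99.8 in siH1f0 replicates 1, 2 and 3, against 99.9 and 99.8 in siControl replicates 1 and 2. The middle of the highest stretch lay at -273, -315 and -273 bp from the start under siH1f0, against -270 and -316 bp under siControl, so the positions of the groups overlapped. Known MEF2 targets had a peak in 11, 12 and 10 of 16 genes under siH1f0, against 10 and 12 under siControl. Nr4a1 (an immediate early nuclear receptor), Klf2, Klf6, Egr1 and Jun were among the 7 held by all 5 lists, which held 3396 of all 21631 protein-coding genes.

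AP-1 genes encode partners of JUN and FOS, and 8 of 13 had a peak in all 5 lists. So did 8 of 15 housekeeping genes and 3396 of all 21631 protein-coding genes. They had a peak in 11, 13 and 9 of 13 genes in siH1f0 replicates 1, 2 and 3, against 9 and 12 in siControl replicates 1 and 2 (exact permutation p = 1). Jun had percentiles of 95.8, 97.7 and 98.0 under siH1f0, against 94.5 and 95.2 under siControl. Its groups did not overlap, with the same limit of scale as at Actc1. Fos had 98.9, 98.1 and 96.6 under siH1f0, against 96.9 and 97.3 under siControl. Junb, whose product the title of the series links to H1.0, had 94.6, 97.7 and 64.0 under siH1f0, against 84.4 and 96.1 under siControl.

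Fibroblast and extracellular matrix genes had a peak in 24, 23 and 16 of 27 genes under siH1f0, against 14 and 25 under siControl (exact permutation p = 1). Col1a2, Col5a2, Pdgfra, Vim and Ddr2 were among the 10 held by all 5 lists, which held 3396 of all 21631 protein-coding genes. Col1a1 (collagen I) had percentiles of 83.7, 83.1 and 64.0 under siH1f0, against 77.7 in siControl replicate 2 and no peak in siControl replicate 1. Postn (periostin) had 8.96, 41.0 and 55.0 under siH1f0, against 27.4 in siControl replicate 2 alone. Thy1, a surface marker of fibroblasts, had 95.1 and 97.6 in siH1f0 replicates 1 and 2 and none in replicate 3, against 31.2 and 93.5 under siControl. The linker histone genes had 7, 7 and 6 of 9 under siH1f0, against 5 and 7 under siControl (exact permutation p = 0.8). H1f0 itself, the target of the siRNA, had a peak in siH1f0 replicates 1 and 2 at percentiles of 62.6 and 41.0, and in siControl replicate 2 at 55.2.

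Cardiac transcription factors and natriuretic genes had a peak in 8 of 21 genes in each siH1f0 list, against 6 and 8 in siControl replicates 1 and 2 (exact permutation p = 0.8). Calcium handling and ion channel genes had 8 of 16 in each siH1f0 list, against 5 and 10 under siControl (exact permutation p = 0.8). Markers of other lineages were counted in the same way. Skeletal muscle genes had 1, 2 and 2 of 14 under siH1f0, against 2 and 2 under siControl, and neuronal genes had 2, 3 and 1 of 12, against 3 and 3. Hepatocyte genes had 1, 1 and 0 of 9 under siH1f0, against 0 and 0, and blood and immune genes had 1, 1 and 0 of 10, against 1 and 2. Endothelial genes had 0 of 8 in each siH1f0 list, against 0 and 1, and smooth muscle genes had 4, 5 and 0 of 10, against 2 and 3. With peaks inside genes counted as well, a rule chosen after seeing the data, endothelial genes stood at 75, 75 and 37.5% under siH1f0, against 50 and 75% under siControl. All protein-coding genes then stood at 45.3, 52.8 and 35.1% under siH1f0, against 30.5 and 49.8% under siControl. Cell cycle genes had 13, 14 and 8 of 16 under siH1f0, against 5 and 13, and housekeeping genes had 12, 14 and 9 of 15, against 9 and 12. No exact permutation p over the 16 gene lists was below 0.6, and each was 1 after Benjamini-Hochberg adjustment.

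**Figure D4:**
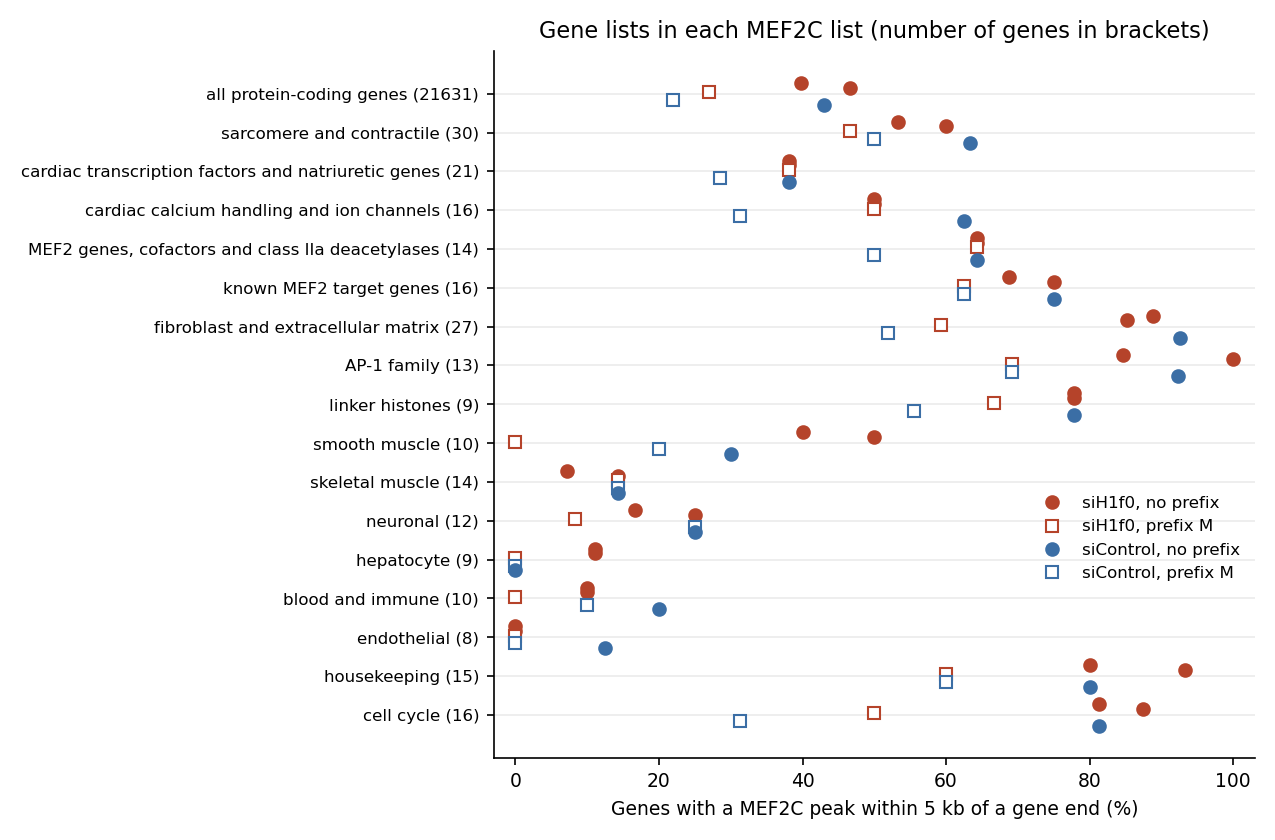
Percentage of the genes of each list (x axis, 0 to 100%) with a MEF2C peak within 5 kb of a gene end, 1 symbol per MEF2C list, red siH1f0 above blue siControl in each row, open squares for names with the prefix M. Among all protein-coding genes the lists with the prefix lie lowest, at 27.0% (siH1f0 replicate 3) and 22.0% (siControl replicate 1). Sarcomere genes average 53.3% under siH1f0 and 56.7% under siControl.

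The share of peaks by gene ends overlapped between the siRNAs. Of all peaks, 38.2, 33.2 and 33.0% lay within 5 kb of an end of a protein-coding gene in siH1f0 replicates 1, 2 and 3, against 31.8 and 35.2% in siControl replicates 1 and 2 (exact permutation p = 0.8). In lists of equal length the values were 38.4, 34.3 and 33.5% under siH1f0, against 31.8 and 32.2% under siControl, where the groups no longer overlapped (exact permutation p = 0.2, the smallest possible). Gained regions lay near a gene end in 37.8% of cases and lost regions in 22.2%, against 32.2% of all regions. Peaks on X were 1.39, 1.53 and 1.90% of siH1f0 lists, against 1.96 and 2.03% of siControl lists, again at the smallest possible p (0.2), with a difference of -0.0596 percentage points within the lists with the prefix M and -0.565 without it.

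Of 32619 RefSeq promoter windows, none of them on chromosome 18, 1631 were held by all 5 lists. Windows in gained regions numbered 79 (0.242%) and windows in lost regions 14 (0.0429%). The MEF2 element stood in 5.27% of the windows held by all 5 lists and in 3.71% of all windows, and the AP-1 element in 6.68 and 7.85%. Among the gained windows 3 held the MEF2 element and 7 the AP-1 element (8.86%), and among the lost windows 0 and 2 did. The share of held windows with the AP-1 element was 5.59, 5.81 and 5.88% in siH1f0 replicates 1, 2 and 3, against 6.60 and 6.08% in siControl replicates 1 and 2. The siH1f0 lists lay below both siControl lists, with a difference in means of -0.582 percentage points (exact permutation p = 0.2, the smallest possible; 0.4 after adjustment over 5 promoter measures), and also within lists with the prefix (-0.724) and without it (-0.382). The share with the MEF2 element was 3.77, 3.83 and 4.32% under siH1f0, against 4.90 and 3.89% under siControl, and the groups overlapped (exact permutation p = 0.4). The element of GATA factors stood in 5.78, 6.30 and 5.49% under siH1f0, against 6.33 and 6.01%, and that of T-box factors in 10.2, 10.4 and 10.5%, against 9.96 and 10.3% (exact permutation p = 0.4 each). Mean G and C content was 61.5% in gained, 57.5% in lost and 53.9% in all windows, and the part of base composition in these shares was not tested. A match is a run of letters and not a shown binding site.

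The design implies the question whether MEF2C peaks under siH1f0 lay more often where H1.0 is found. H1.0 and H3K9me3, a mark of heterochromatin, were profiled in ground-state cells and under siControl at day 1, in 2 lists each, and not under siH1f0 in the samples used. The H1.0 lists ranged from 28.5 to 1109 Mb of the genome, so each was taken by itself. Under siH1f0, 91.9, 90.3 and 87.0% of peaks overlapped H1.0 of day 1 siControl replicate 1, against 84.0 and 90.3% under siControl, a difference of 2.59 percentage points (exact permutation p = 0.4). For H1.0 of day 1 siControl replicate 2 the values were 10.0, 9.28 and 10.5% under siH1f0, against 8.65 and 9.81% under siControl (0.709 percentage points, exact permutation p = 0.4). For the ground state they were 19.9, 17.8 and 18.3% against 14.1 and 18.7% with replicate 1, and 86.4, 85.1 and 80.9% against 80.3 and 85.3% with replicate 2 (exact permutation p = 0.6 each). The groups overlapped in all 4, and without siControl replicate 1 the differences were -0.585, 0.129, -0.0194 and -1.16 percentage points in the order given, so 3 of the 4 directions turned. Where the middle of a peak's highest stretch was asked to lie in the mark, a rule that does not count the whole width, the day 1 replicate 1 values were 73.8, 68.5 and 72.5% under siH1f0, against 70.3 and 71.1% under siControl.

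H3K9me3 was overlapped by few MEF2C peaks under either siRNA. With H3K9me3 of day 1 siControl replicate 2 the shares were 5.34, 5.81 and 7.12% under siH1f0, against 5.11 and 6.55% under siControl (exact permutation p = 0.8). Differences over the 4 H3K9me3 lists ran from -0.00932 to 0.413 percentage points, and within lists without the prefix M all 4 were negative, from -1.13 to -0.793, while within lists with it all 4 were positive, from 1.05 to 2.46. Gained regions overlapped H1.0 of day 1 siControl replicate 1 in 93.9% of cases and lost regions in 79.4%, against 89.4% of all regions and 96.4% of those held by all 5 lists. With replicate 2 of the same H1.0 group the order was the opposite, at 10.3% of gained and 14.3% of lost regions, against 10.6% of all regions. With the ground state, 23.3% of gained and 20.6% of lost regions overlapped replicate 1, against 20.2% of all regions, and 86.9% of gained and 75.1% of lost regions overlapped replicate 2, against 83.8%. H3K9me3 of day 1 siControl replicate 1 was overlapped by 4.17% of gained and 10.6% of lost regions, against 5.15% of all regions, and replicate 2 by 5.28 and 8.47%, against 7.81%. In the ground state it was overlapped by 2.22% of gained and 5.29% of lost regions in replicate 1, against 3.55% of all regions, and by 6.11 and 10.1% in replicate 2, against 9.55%. In the replicate 2 lists the lost share lay close to that of all regions. Median widths were 2550 bp for gained, 1788 bp for lost and 2235 bp for all regions, and the part of width in these shares was not tested.

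**Figure D5:**
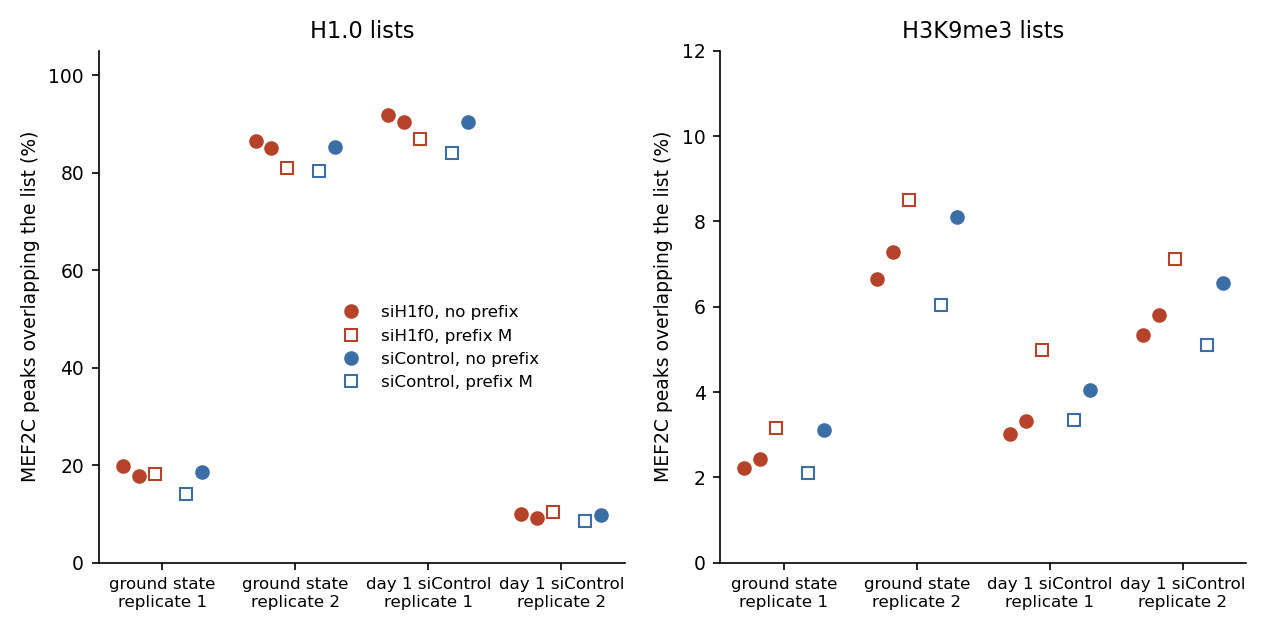
Percentage of MEF2C peaks (y axes, different scales for the panels) that overlap each of 4 H1.0 lists (left) and 4 H3K9me3 lists (right), 1 symbol per MEF2C list, red siH1f0 to the left of blue siControl, open squares for names with the prefix M. The groups overlap for every mark list, and no exact permutation p was below 0.4.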

How the data were processed

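CUT&RUN peak lists of MEF2C, H1.0 and H3K9me3 were used as the authors deposited them. Bowtie2, SEACR and mm10 are named in the submitters' processing notes; their versions, and any use of the 8 IgG samples as threshold, were not given in the sources used here. The authors' lists, 1 per sample, hold signal as whole numbers, the coverage summed over a peak and its maximum, with no scaling to depth or spike-in in the values; the names of the lists carry SEACR's relaxed setting.

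Coordinates are 1-based on mm10. Peaks of the 5 MEF2C lists were merged, and a list held a region that 1 of its peaks overlapped by at least 1 bp. Genes and promoters came from RefSeq tables of GRCm38.p6, with 21631 protein-coding genes, and every symbol of the 16 gene lists matched; a gene held a peak within 5 kb of either end. Values per list were compared by exact permutation tests over the 10 splits, two-sided, with Benjamini-Hochberg adjustment within a family and a threshold of 0.05. Ranks were fitted in limma 3.58.1 (R 4.3.3) over the regions held by all 5 lists, and the interval and rank steps were tested on simulated data. Python 3.11.15, numpy 2.4.6 and pandas 2.3.3 were used. Named regions are the 10 gained, the 10 lost and the 5 shared with the highest lowest percentile, and, as none passed, the 5 of smallest p each way in the rank test; named genes are a set of heart, fibroblast and AP-1 genes plus every listed gene held by one group alone; promoter windows shown were chosen among these after their values were seen. One of these regions is not reported here.

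The members, gene lists, rules and name prefix were chosen with earlier results of these data known. No 2 lists shared a peak with the same bounds and the same signal values, although bounds alone could coincide. Alternatives left out each sample, paired replicates 1 and 2, kept to 1 kind of list, used equal-length or stronger lists, and changed overlap, merging, distance and scale. The summit rule, the gene-body rule and the promoter tests and alternatives were chosen after seeing the data.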

Additional observations from a re-analysis of the deposited data

How the results depend on the processing

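Over 39 results and 460 alternatives, 379 kept the direction or the size of a count. No exact permutation p was below 0.2, but no split of these lists could give a smaller one. An alternative with a difference of 0 was counted as kept. Rank test counts of 0 were counted as kept as well, with nothing to keep. Known MEF2 target genes had a main difference of 0, which has no direction to lose, so their alternatives were all counted as kept. Leaving out samples moved that difference from -6.25 to 6.25. Values are siH1f0 minus siControl, in percentage points for shares. Leaving out each sample in turn gave differences of -2345 to 10529 peaks, -6.996 to 40.7 Mb, -220 to 818 bp in median width and -2204 to 10645 regions. The share near gene ends ran from -0.417 to 2.98, overlaps with the 4 H1.0 lists (ground state, then day 1) from -0.0194 to 4.55, -1.16 to 3.89, -0.585 to 5.77 and 0.129 to 1.29, and with the 4 H3K9me3 lists from -0.515 to 0.496, -0.616 to 1.44, -0.528 to 0.463 and -0.456 to 0.984. Shares of genes ran from -5.16 to 15.8 (all protein-coding genes), -10 to 3.33 (sarcomere and contractile), -12.5 to 18.8 (cardiac calcium handling and ion channels), -14.8 to 25.9 (fibroblast and extracellular matrix), -7.69 to 15.4 (AP-1 family), -3.7 to 18.5 (linker histones), -5 to 20 (smooth muscle), -2.22 to 17.8 (housekeeping) and -8.33 to 41.7 (cell cycle), of windows held from -2.93 to 11.4, and of held windows with the MEF2 element from -0.929 to 0.0849. The low ends for peaks, covered length and width came without siControl replicate 1 and the high ends without siControl replicate 2. Gained regions ran from 430 to 3134 and lost regions from 230 (without siH1f0 replicate 3) to 3494; 934 were gained without siH1f0 replicate 1, 2064 without siH1f0 replicate 3 and 3134 without siControl replicate 2, while 774 were lost without siH1f0 replicate 2, 3494 without siControl replicate 1 and 1769 without siControl replicate 2. Fewer lists must then share or lack a region, and the joined regions themselves change with the lists and peaks used.

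Whether the replicate numbers pair the samples could not be told. Deviations in rank from the group means correlated at -0.102 for number 1 and 0.204 for number 2. With 2 siControl lists their deviations mirror each other, so the values do not stand apart from those of other pairs. Both lists of number 2 also lack the prefix M, while those of number 1 differ in it. With the replicate block over numbers 1 and 2, 2064 regions were gained, and H3K9me3 differences turned to -0.0976 (ground state replicate 2), -0.528 and -0.251 (day 1 replicates 1 and 2); no region passed the rank test. Within lists with the prefix M, 9048 regions were gained and 5934 lost, H3K9me3 of ground state replicate 1 was at 1.05 and smooth muscle genes at -20.0. Within lists without it, 2288 were gained and 3813 lost; H1.0 of day 1 replicate 2 was at -0.152, H3K9me3 at -1.13, -0.881 and -0.971 (the 3 lists of the block above), calcium handling genes at -12.5, fibroblast genes at -5.56, and the GATA and T-box elements at 0.0323 and -0.0396. The smallest adjusted p of the rank test was then 0.0603.

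In equal-length lists 309 regions were lost, H3K9me3 of ground state replicate 1 was at 0.234 and housekeeping genes at -3.33. In the stronger 50% of each list 81 were lost, that H3K9me3 list was at 0.178, sarcomere and immune genes at 3.33 each, linker histones at -7.41, skeletal muscle at 2.38 and the T-box element at -0.185. Asking peaks to cover 50% of a region left 100 lost. With at least 50% of a peak covered by the mark, H1.0 was at -0.841 (ground state replicate 2), -0.0393 and -0.544 (day 1), and H3K9me3 at -0.147, -0.256 and -0.122. With the summit of the peak in the mark, chosen after seeing the data, H1.0 was at -0.713 (ground state replicate 2) and -0.0084 (day 1 replicate 2), and H3K9me3 at -0.0707, -0.275 and -0.147. Smooth muscle genes were at -1.67 within 1 kb of an end, and AP-1 and endothelial genes at -3.85 and 6.25 within 25 kb. The cause of these turns was not tested. Precision is limited by 3 lists against 2, by the unknown number of aligned reads, and by weak peaks, among which most regions of 1 group alone lay.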
